A study of Homo sapiens with 9 samples.

Results

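The genes described here encode enzymes of heme synthesis, namely ALAS1, ALAS2, ALAD, UROS, UROD, CPOX, PPOX and FECH, together with ABCB10, a transporter of the inner mitochondrial membrane. They were chosen by name for their place in the pathway, and all 9 were found among the 12078 genes that the probe annotation names, with 17 of the 27306 probe sets of the table. The data were 9 Affymetrix expression arrays of 2 human leukemia cell lines. K562 comes from a chronic myeloid leukemia and can be driven toward erythroid or megakaryocytic features by different agents, and HEL is an erythroleukemia line with features of both lineages. Of the 6 K562 arrays, 2 were of untreated cells, 1 was of cells given 25 µM hemin and 1 of cells given 50 µM hemin. Hemin is the oxidized form of heme and served as the erythroid inducer. The others were 1 array with 100 nM decitabine (DAC), an inhibitor of DNA methylation, and 1 with PMA, a phorbol ester used as the megakaryocytic inducer, at 5 nM. HEL cells had 1 array each for untreated, 20 nM DAC and 5 nM PMA. DAC was given in 24 h pulses with harvest at 144 h, and PMA for 48 h. All cultures grew in the same serum-containing medium. The shared protocol of the labels gives other DAC doses and 50 µM hemin alone, so the doses here are those of the sample titles, and how long hemin was applied could not be read from the labels or methods used here.

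Heme synthesis begins in the mitochondrion, where 5-aminolevulinate synthase joins glycine to succinyl-CoA. This step sets the rate of the pathway and has a housekeeping enzyme, ALAS1, which heme represses in most tissues, and an erythroid enzyme, ALAS2, encoded on the X chromosome and controlled by erythroid transcription factors and by iron. ALAD makes the pyrrole porphobilinogen in the cytosol, UROS closes the ring and UROD trims its side chains. Back in the mitochondrion, CPOX oxidizes side chains, PPOX oxidizes the ring and FECH inserts the iron. Maturing red cells raise the whole route to supply hemoglobin.

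The promoters of 4 of these genes are shown. Of these genes ALAS2, CPOX and FECH lay higher with DAC and lower with PMA in K562 cells, as described below, whereas ALAS1 did not. PPOX and ABCB10 showed that combination too, and their promoters are not shown in full. Each promoter shown is the 150 bases directly upstream of the start annotated by RefSeq in GRCh38.p14. It is read 5′ to 3′ along the gene and ends at the base before the gene. Capitals mark matches on either strand to the GATA motif (AGATAA or TGATAA), the CACCC box, the antioxidant element (TGACNNNGC or TGAGNNNGC) and the NRF1 motif (GCGCANGC). The positions are chrX:55030978-55031127 on the minus strand for ALAS2, chr3:98593612-98593761 on the minus strand for CPOX, chr18:57586703-57586852 on the minus strand for FECH and chr3:52197933-52198082 on the plus strand for ALAS1.
ALAS2: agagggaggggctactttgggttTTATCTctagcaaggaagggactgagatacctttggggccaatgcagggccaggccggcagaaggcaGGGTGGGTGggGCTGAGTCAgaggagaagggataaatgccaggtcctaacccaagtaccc
CPOX: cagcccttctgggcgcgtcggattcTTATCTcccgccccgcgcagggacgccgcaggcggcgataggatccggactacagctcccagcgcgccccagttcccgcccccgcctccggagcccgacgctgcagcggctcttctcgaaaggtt
FECH: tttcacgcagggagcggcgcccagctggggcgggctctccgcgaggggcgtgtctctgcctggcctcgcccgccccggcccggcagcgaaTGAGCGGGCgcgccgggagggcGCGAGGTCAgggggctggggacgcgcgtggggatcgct
ALAS1: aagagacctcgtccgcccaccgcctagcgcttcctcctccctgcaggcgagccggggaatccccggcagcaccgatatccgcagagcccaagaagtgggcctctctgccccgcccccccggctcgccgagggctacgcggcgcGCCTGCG

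Over the windows from 250 bases before to 50 bases after each start, 8 of the 9 genes had an entry, with 10 windows in all. A GATA match in either form stood in 3 of the 10 windows, those of ALAS2 (first base at -127), CPOX (-207 and -125) and the downstream start of PPOX (-63), against 16.31% of all 35116 windows. All 4 matches lie on the strand opposite to the gene. The PPOX match is shown with its surroundings at chr1:161166571-161166600 on the plus strand, since PPOX is among the members that lay furthest above untreated cells with DAC. Capitals there mark the GATA match alone. The CACCC matches at -74 and -56, to either side of it, are left in lower case.
PPOX: agggtgtggcccTTATCTgcacccagcaga
An antioxidant element match in either form stood in 4 windows, those of ALAS2, UROD, CPOX and FECH, against 29.1% of all windows. The ALAS2 match has its first base at -49 and overlaps no other marked motif. The CACCC letters stood in 9 of the 10 windows but also in 59.9% of all windows, and the GC box GGGCGG in 8 against 45.0%. The NRF1 motif was found in the ALAS1 window alone among these genes, at -7, 22 and 24, where the last 2 overlap, and in 11.98% of all windows. These are matches of letters and not measured binding.

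**Figure D1:**
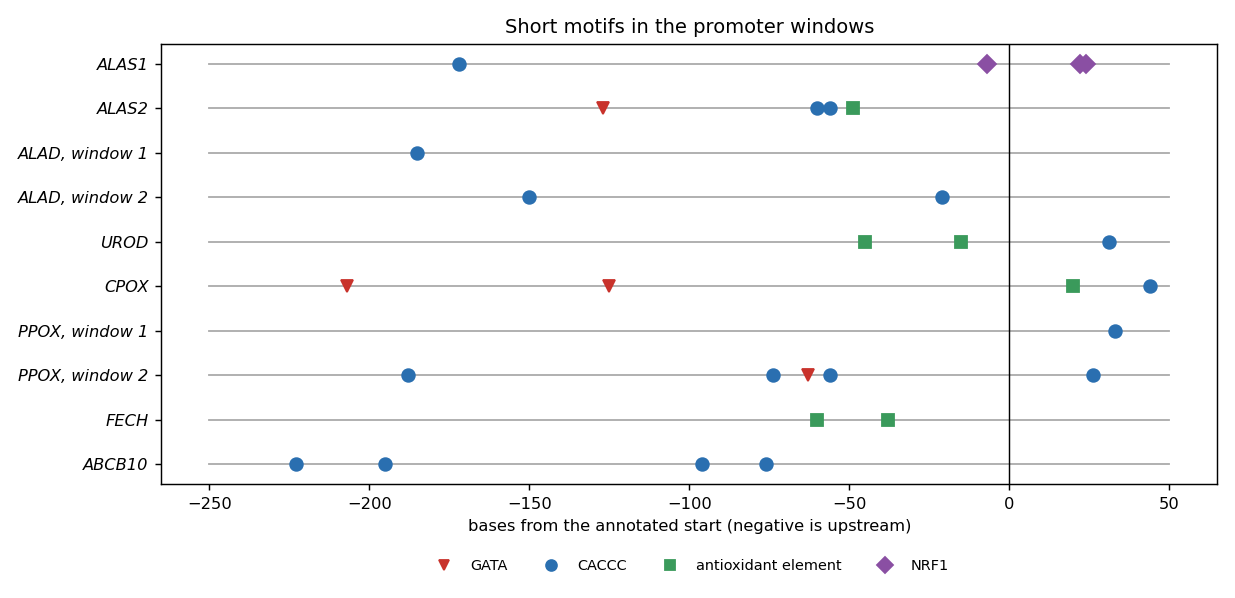
Matches to 4 short motifs on either strand (symbols) along the promoter windows of the members (rows), in bases from the annotated start (horizontal axis, negative upstream). GATA matches stand in ALAS2, CPOX and the second PPOX window.

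The values are log2 expression levels that the authors of the series made with GCRMA, so a difference of 1 is a doubling of signal, and levels of different probe sets are not compared. Array medians lay between 6.67 and 6.78. Probe sets that reach a log2 value of 5 in at least 1 array of a cell line were kept, and each gene is given by its brightest kept probe set. All 9 members passed in both lines. The K562 arrays were fitted with limma over 9890 genes with both hemin doses as 1 group, and PMA and DAC, with 1 array each, were assumed to vary like the untreated and hemin arrays. The labels do not say that the untreated arrays came from separate cultures. The p-values therefore rest on the spread among single arrays, and this spread may be technical. With both hemin doses as 1 group, the difference between 25 and 50 µM also counts as spread in every K562 test. For ALAS2 it was 2.37, against 1.37 between the untreated arrays. In extracts of whole cultures, fewer cells expressing a gene and less RNA per cell cannot be told apart. The untreated K562 arrays stood apart from each other in 24.4% of all genes tested by over 1.5-fold, 11.2% being higher and 13.3% lower in replicate 1, and in 3 of the 9 members. ALAS2 (6.63 and 5.26) and FECH (9.76 and 9.14) were higher in untreated replicate 1, and ALAD (7.08 and 7.92) was lower. The erythroid markers measured, 6 of 7 listed, also summed to more in replicate 1, with a log2 value of 15.61 against 13.59, and were at 16.32 and 16.70 with hemin, 16.89 with DAC and 14.65 with PMA. This sum is carried by the embryonic globins HBE1 and HBZ, and with hemin GATA1 and EPOR, the erythropoietin receptor, differed by -0.74 and -0.58. Their part in the differences below was not tested. Values without 1 of these arrays are given where they change a call or move a difference by over 1.5-fold, and for some others.

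**Figure D2:**
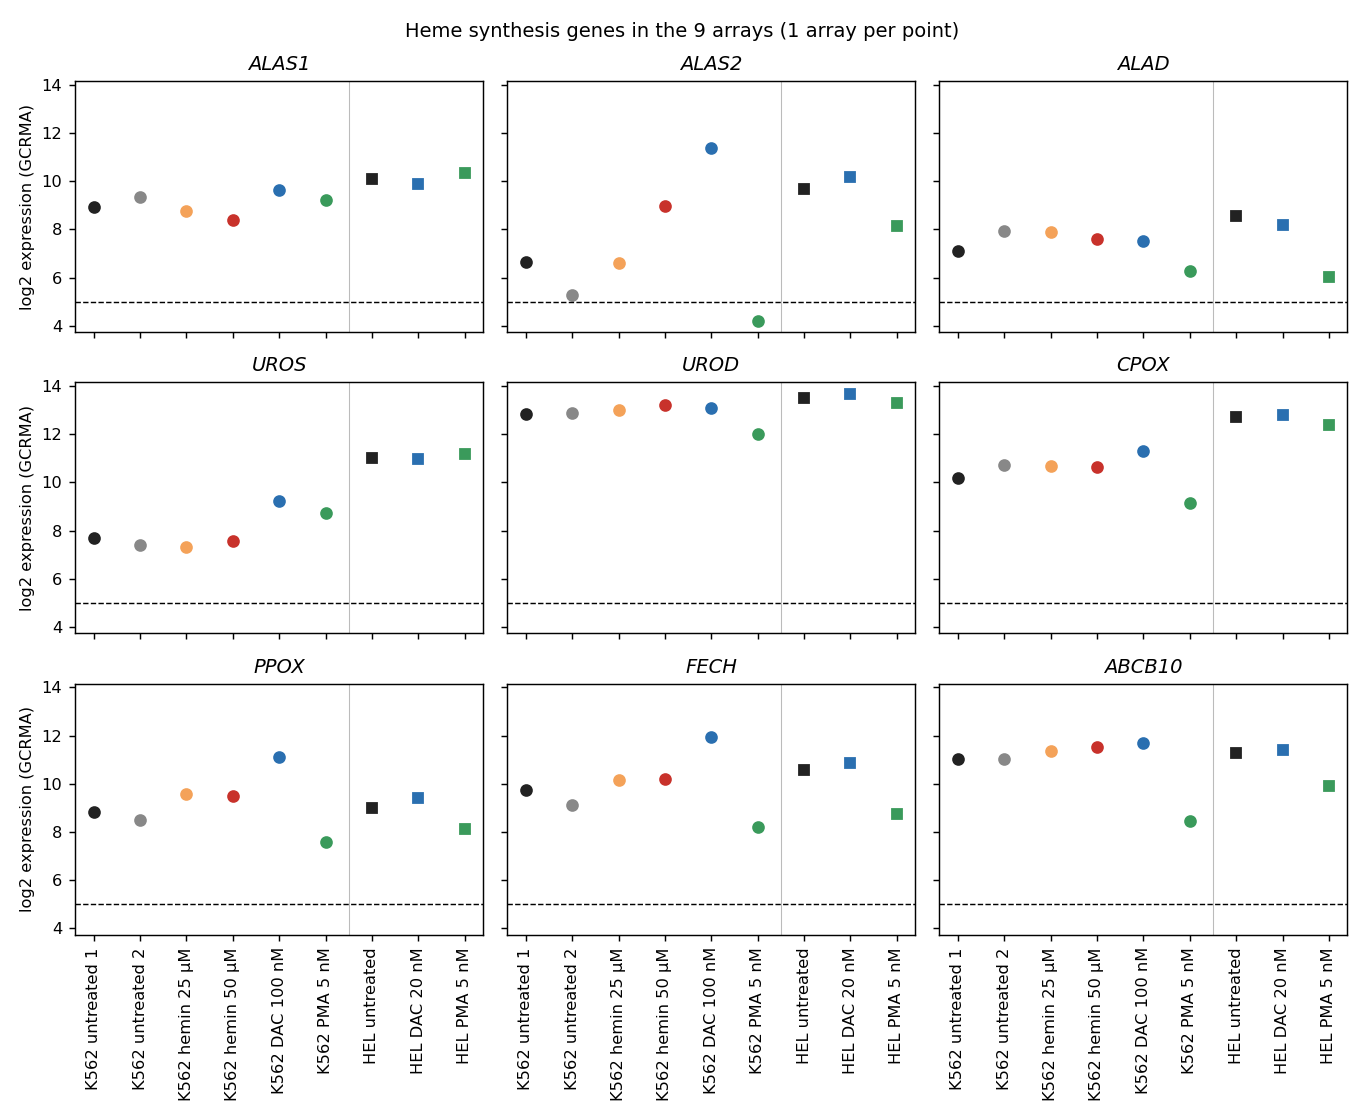
Log2 expression (vertical axis) of each member in the 9 arrays (horizontal axis, circles for K562 and squares for HEL, 1 point for each array). The dashed line marks the minimum of 5. The DAC array is the highest K562 array for 7 of the 9 genes and the PMA array the lowest for 7.

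In K562 cells treated with DAC, the erythroid enzyme ALAS2 lay far above untreated cells, and the last enzymes of the route, PPOX and FECH, lay 5.57-fold and 5.69-fold above. ALAS2 was at 11.39 with DAC against 6.63 and 5.26 without, a log2 difference of 5.45 (standard error 1.21). Only 7 of the 9890 genes had a larger difference with DAC. FECH, which inserts the iron, was at 11.95 against 9.76 and 9.14, and ranked 94th. PPOX was at 11.12 against 8.81 and 8.48, and ranked 98th. For each of these 3 genes the DAC array lay above the other 5 K562 arrays and above all 3 HEL arrays.

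UROS, the ring-closing enzyme, was at 9.21 with DAC against 7.69 and 7.41 (log2 difference 1.66, standard error 0.26). CPOX was at 11.30 against 10.18 and 10.72, and the transporter ABCB10 at 11.70 against 11.03 and 11.02. These 3 also lay above both untreated arrays. ALAS1, UROD and ALAD stayed within 1.5-fold of the untreated mean, with log2 differences of 0.49, 0.22 and 0.03, and the ALAD value of 7.53 lay between the untreated ones. Of the 9 members, 6 were over 1.5-fold higher with DAC and 0 lower, where 14.8% of all genes were higher by that rule, 17.7% were lower and 32.5% passed it either way. The median log2 difference was 0.85 over the members and -0.02 over all genes. The DAC array was the highest of the 6 K562 arrays for 7 members, against 15.8% of all genes.

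With a single DAC array, limma called 0 of the 9 members at an adjusted p under 0.05 and 6 genes (0.0607%) in all. At an unadjusted p under 0.05 it gave 5 members, namely ALAS2, UROS, PPOX, FECH and ABCB10, where 10.8% of all genes pass. The smallest adjusted p of a member was that of PPOX (adjusted p = 0.151 from limma), with 0.0517 to 0.739 over the alternatives. The lowest comes from the mean of kept probe sets (log2 difference 3.86), which takes in a dim PPOX probe set that reaches the minimum in the DAC array alone. The difference of ALAS2 was 4.76 against untreated replicate 1 alone and 6.13 against replicate 2 alone. In the same array AHSP, the chaperone of alpha globin and an erythroid marker, was at 7.29, while it lay between 2.25 and 2.58 in the other 8 arrays, so that with DAC it was at least 4.89-fold above the minimum of 5.

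With PMA, most of the route lay below untreated cells. ABCB10 fell in K562 cells, from 11.03 and 11.02 to 8.45, a log2 difference of -2.58 or 5.96-fold (standard error 0.22, adjusted p = 0.0106 from limma). It was the only member past the test, where 16.8% of all genes passed, 9.09% as falls and 7.74% as rises. At an unadjusted p under 0.05 there were 7 members, all but ALAS1 and ALAS2, against 36.4% of all genes. Leaving out any 1 of the untreated or hemin arrays ends the call, since the fit then keeps 1 residual degree of freedom, and the adjusted p lay between 0.0750 and 0.110 with differences of -2.57 to -2.58.

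CPOX was at 9.14 with PMA against 10.18 and 10.72 (log2 difference -1.31, adjusted p = 0.0642 from limma). FECH was at 8.20 against 9.76 and 9.14 (-1.25, adjusted p = 0.0844, with -0.94 and -1.56 against each untreated array alone), and PPOX at 7.601 against 8.81 and 8.48 (-1.04, adjusted p = 0.0694). None of these passed the test, and for all of them the PMA array was the lowest of the 6 K562 arrays. ALAD was at 6.27 against 7.08 and 7.92 (-1.23, with -0.81 and -1.65 against each untreated array alone), and UROD, the decarboxylase, at 12.005 against 12.86 and 12.91 (-0.88). ALAS2 was at 4.21, under the minimum of 5, so its difference from the untreated mean of 5.94 is at least 1.92-fold in size. That bound is 3.09-fold against untreated replicate 1 alone and 1.19-fold against replicate 2 alone. ALAS1 did not follow, at 9.22 between the untreated values of 8.95 and 9.33.

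UROS stood out among the members, as it lay higher with PMA, at 8.75 against 7.69 and 7.41 (log2 difference 1.20, standard error 0.26, adjusted p = 0.0558 from limma). The second kept probe set of UROS lay 0.65 above the untreated mean, at 6.27 between the untreated values of 6.39 and 4.85. Of the members, 7 were over 1.5-fold lower with PMA and 1, UROS, was higher, against 30.1% and 25.8% of all genes (55.8% either way). The median log2 difference was -1.23 over the members and -0.10 over all genes, and the PMA array was the lowest K562 array for 7 members, against 36.5% of all genes. Both DAC and PMA are set against the same untreated arrays. With DAC over 1.5-fold higher and PMA over 1.5-fold lower were 5 members, ALAS2, CPOX, PPOX, FECH and ABCB10, where 4.15% of all genes show this combination.

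The megakaryocyte markers, all 5 of 5 measured, summed to a log2 value of 11.50 in the K562 PMA array against 7.66 and 8.11 untreated, mainly through ITGA2B (10.71) and ITGB3 (10.21), while GP9 and PF4 stayed at the lowest value of 2.25. The erythroid markers did not go one way. Their sum of 14.65 lay between the untreated 15.61 and 13.59, with KLF1, an erythroid transcription factor, at 7.001 with PMA against 10.96 and 9.58, and GATA1 at 10.84 against 10.42 and 9.72. The part of these differences in the levels of the enzymes was not tested.

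**Figure D3:**
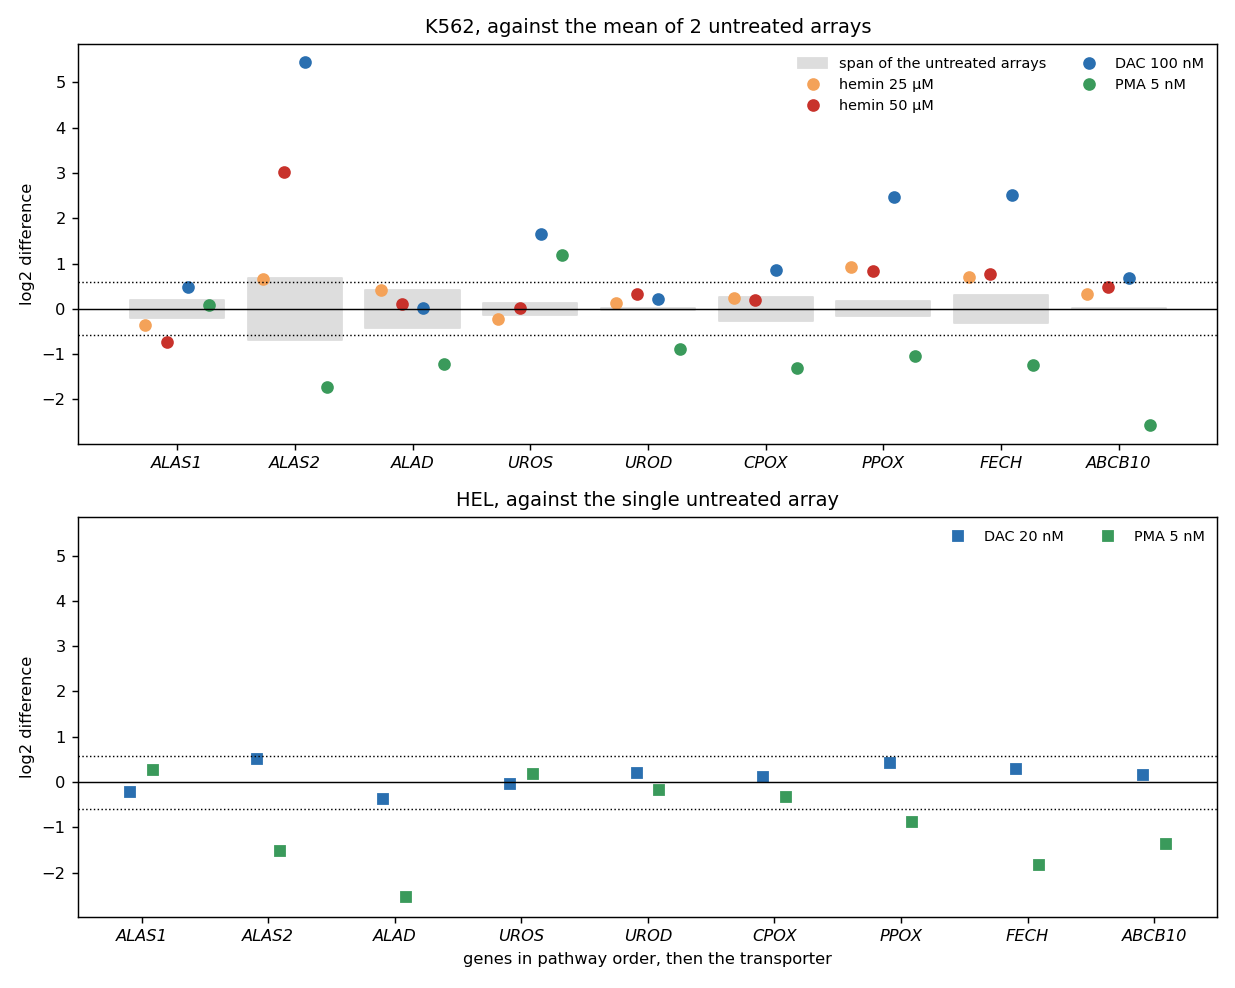
Log2 difference of each member (horizontal axis, pathway order) from untreated cells in K562 (upper panel) and HEL (lower panel), 1 array per point. Grey boxes span the 2 untreated K562 arrays around their mean and dotted lines mark 1.5-fold. ALAS2 reaches 5.45 with DAC in K562, and 7 members lie below the lower dotted line with PMA there.

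With hemin, ALAS1 lay below untreated cells and ALAS2, PPOX and FECH above them in the mean, and no member passed the test. ALAS2 was at 6.60 at 25 µM and 8.97 at 50 µM against 6.63 and 5.26 without hemin. The lower dose therefore lay within the untreated span, and the 50 µM array lay 3.03 above the untreated mean. ALAS1, which heme is known to repress, was at 8.78 and 8.40 against 8.95 and 9.33, so both hemin arrays lay below both untreated arrays, by 0.36 at 25 µM and 0.74 at 50 µM from their mean. Over both doses the log2 difference was -0.55 for ALAS1 (standard error 0.26, adjusted p = 0.4996 from limma) and 1.85 for ALAS2 (standard error 0.99, adjusted p = 0.528).

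PPOX and FECH lay higher at both doses and by similar amounts. PPOX was at 9.57 and 9.48 with hemin against 8.81 and 8.48 (log2 difference 0.88, standard error 0.21, adjusted p = 0.481 from limma). FECH was at 10.14 and 10.21 against 9.76 and 9.14 (0.73, standard error 0.28, adjusted p = 0.486). ABCB10 was at 11.36 and 11.51 against 11.03 and 11.02, and UROD at 13.02 and 13.20 against 12.86 and 12.91. In these 4 genes the hemin and untreated arrays did not overlap, though the differences of ABCB10 (0.41) and UROD (0.23) were under 1.5-fold. The other bright UROD probe set went the opposite way without overlap, at 11.682 and 11.805 with hemin against 12.110 and 11.852. The middle enzymes ALAD, UROS and CPOX had hemin values that overlapped with the untreated ones, with log2 differences of 0.25, -0.11 and 0.22.

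By the brightest probe set, both hemin values exceeded both untreated values in 4 of the 9 members. In 1, ALAS1, both were below them. Of all genes, 22.9% and 22.6% did so. Over 1.5-fold higher in the mean of both doses were 3 members, ALAS2, PPOX and FECH, and 0 were lower, against 9.41% and 14.2% of all genes (23.7% either way). The same 3 genes were over 1.5-fold higher at 25 µM and at 50 µM, where 7.91% and 15.4% of all genes were. At 25 µM 0 members were lower, against 9.68%, and at 50 µM 1, ALAS1, against 20.8%. Either way 17.6% of all genes passed 1.5-fold at 25 µM and 36.2% at 50 µM. Limma called 0 members (0% of all genes) and gave 1, PPOX, at an unadjusted p under 0.05, against 10.2% of all genes. The methods' t-test gave 0 members adjusted, against 1 of all 9890 genes, and 2 unadjusted, against 673. Leaving out the 50 µM array gives an ALAS2 difference of 0.66, and leaving out untreated replicate 1 or 2 gives 2.53 or 1.16, while that of FECH is 0.42 without untreated replicate 2. From 25 to 50 µM, ALAS2 differed by 2.37, while the other 8 members differed by -0.38 to 0.24.

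**Figure D4:**
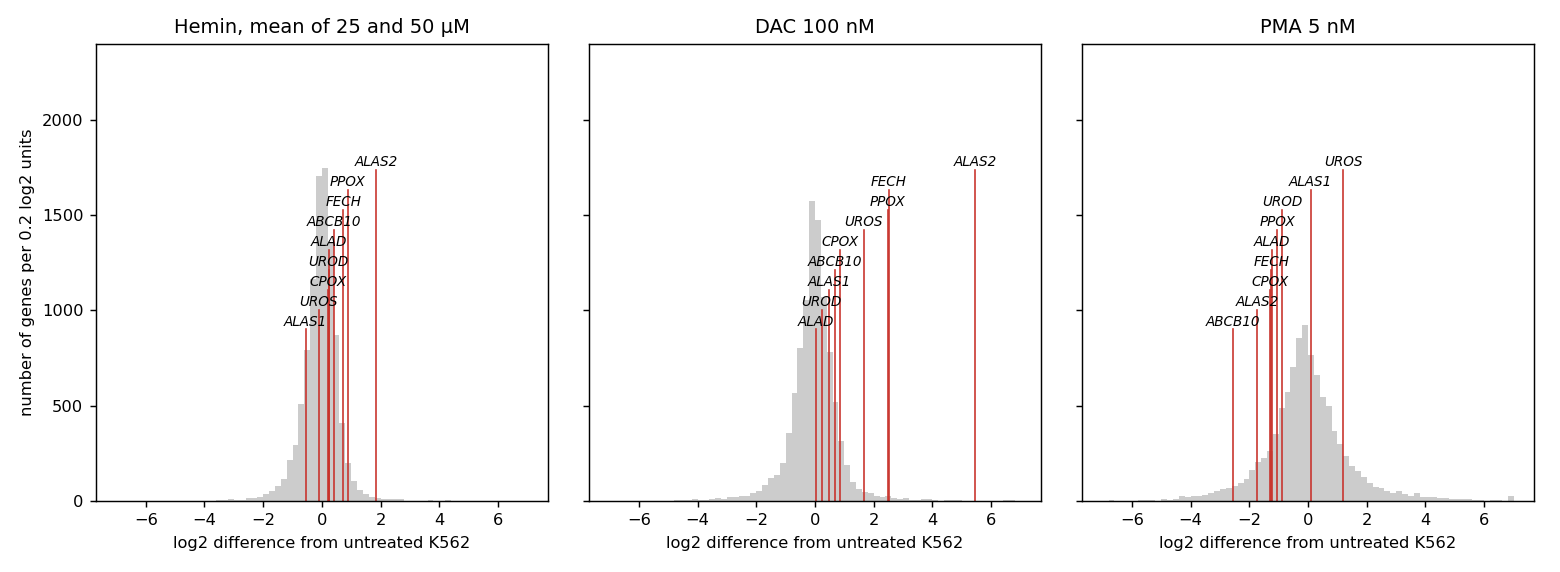
Number of genes (vertical axis, 9890 in each panel, bins of 0.2) by log2 difference from untreated K562 cells (horizontal axis) for hemin, DAC and PMA. Red lines mark the members, and their heights only separate the names. ALAS2 lies at 1.85, 5.45 and -1.73.

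In HEL cells each condition had 1 array, so the values below have no replicate check. With 20 nM DAC all 9 members stayed within 1.5-fold of the untreated array, with log2 differences from -0.38 for ALAD to 0.50 for ALAS2 and a median of 0.15, and 0 members were past 1.5-fold where 10.3% of all genes were, 4.23% higher and 6.05% lower. ALAS2 was at 10.16 with DAC and 9.66 without, PPOX at 9.40 and 8.99, and FECH at 10.87 and 10.58. These HEL values of ALAS2 lay above every K562 array except that with DAC. The DAC dose in K562 was 100 nM, so the responses of both lines are given side by side and not compared.

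With PMA, the same dose and time in both lines, 5 members were over 1.5-fold lower in HEL and 0 were higher, against 16.8% and 14.9% of all genes (31.8% either way). ALAD, which makes porphobilinogen, was at 6.02 with PMA against 8.57 without, the largest of these differences at 5.83-fold. FECH was at 8.76 against 10.58, ALAS2 at 8.14 against 9.66, ABCB10 at 9.90 against 11.27 and PPOX at 8.11 against 8.99. These 5 were among the 7 members over 1.5-fold lower with PMA in K562. The share of all genes lower in both lines was not counted. CPOX and UROD, lower in K562 by 1.31 and 0.88, differed in HEL by -0.32 and -0.18. UROS, higher in K562, was at 11.19 against 11.003 in HEL, and ALAS1 at 10.36 against 10.10. The 5 megakaryocyte markers summed to a log2 value of 14.33 with PMA against 12.44 in untreated HEL, with PF4, platelet factor 4, at 13.34 against 6.50. The erythroid sum was 14.37 against 14.78, and HBZ, the embryonic zeta globin, was at 4.38, under the minimum, against 9.96. Their part in the HEL values of the enzymes was not tested.

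The difference between the PMA responses of both lines was tested in a fit of all 9 arrays over 10560 genes, which assumes that the HEL arrays vary like those of K562. At an adjusted p under 0.05 it called 0 members and 2.66% of all genes. At an unadjusted p under 0.05 it gave 2 members, ABCB10 and UROD, where 21.1% of all genes pass. The K562 response exceeded that of HEL by over 1.5-fold upward in 2 members, ALAD and UROS, and downward in 3, UROD, CPOX and ABCB10, against 25.6% and 26.7% of all genes (52.4% either way). ABCB10 was lower in K562 by a further 1.20 (standard error 0.19, adjusted p = 0.0991 from limma), with 0.0705 to 0.246 over the alternatives. For ALAD the K562 response was less negative by 1.32 (standard error 0.70, adjusted p = 0.404).

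On the brightest kept probe sets, both untreated K562 arrays lay below the untreated HEL array for each of the 9 members. Of all genes, 37% do so. UROS was at 7.69 and 7.41 in K562 against 11.003 in HEL, 10.9-fold lower (log2 difference -3.45, standard error 0.21, adjusted p = 0.00778 from limma). CPOX was at 10.18 and 10.72 against 12.70, 4.76-fold lower (-2.25, standard error 0.29, adjusted p = 0.0310). These 2 genes were called lower in K562, where 10.7% of all genes were (20.2% either way). At an unadjusted p under 0.05 there were 5 members, with ALAS1, UROD and FECH added, against 38.7% of all genes. The UROS call is lost when any 1 of the untreated or hemin K562 arrays is left out (adjusted p between 0.0591 and 0.0679), and that of CPOX without untreated replicate 1 or either hemin array (0.0557 to 0.117), while the differences stay between -3.31 and -3.59 and between -1.99 and -2.52.

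ALAS2 was 13.1-fold lower in K562 in the mean, but the standard error was 1.38 (adjusted p = 0.169 from limma). That error pools the gap between the untreated K562 arrays (1.37) with that between the 25 and 50 µM hemin arrays (2.37). The log2 difference of -3.72 was -3.03 with untreated replicate 1 alone and -4.40 with replicate 2 alone. ALAS1 was lower by 0.96, ALAD by 1.07, FECH by 1.13 and UROD by 0.62, none past the test. On the second kept probe set of FECH the difference was -0.397, under 1.5-fold. There the lines overlapped, with 8.213 and 7.244 in K562 against 8.125 in HEL. PPOX and ABCB10 differed least, by 0.34 and 0.25. Over 1.5-fold lower in K562 were 7 members and 0 were higher, against 25.1% and 30.9% of all genes (56% either way). On the brightest probe sets, all 3 HEL arrays lay above all 6 K562 arrays for ALAS1, UROS, UROD and CPOX, 4 of 9 members, where 16.9% of all genes do. On the dimmest kept probe set of UROD the lines overlapped, with 7.94 in K562 at 50 µM hemin against 7.24 in HEL with PMA. For UROS the nearest arrays of both lines were the K562 DAC array at 9.21 and the HEL DAC array at 10.96, so that the lines did not overlap under any treatment measured.

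Of the 4 members with several kept probe sets, FECH gave like patterns on both under treatment but not between the untreated lines. The probe sets of UROS, UROD and PPOX differed in part. Of the 17 member probe sets, 14 reached the minimum of 5 in K562, and the others, 1 each of ALAD, UROS and FECH, stayed under 5 in all 9 arrays. Both kept probe sets of FECH lay higher with DAC, by 2.51 and 2.62, and lower with PMA, by 1.25 and 1.11. Both kept probe sets of UROS lay higher with DAC, by 1.66 and 1.75, but at 25 µM hemin they differed from the untreated mean by -0.23 and 0.77.

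UROD was nearly flat under hemin and DAC on its pair of bright probe sets, which lay on opposite sides of untreated cells with hemin (0.228 and -0.238). Its dim probe set was at 6.16 and 5.28 in untreated K562, 6.03 and 7.94 with 25 and 50 µM hemin, 7.63 with DAC and 4.80 with PMA. On it the 50 µM array lay 2.22 above the untreated mean, against 0.32 and -0.18 on the bright ones. The dim PPOX probe set was at 7.61 in the K562 DAC array and between 2.25 and 3.13 in the other 8 arrays, so with DAC it was at least 6.11-fold above the minimum of 5. Its PMA value of 2.39 is under the minimum and carries no order.

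**Figure D5:**
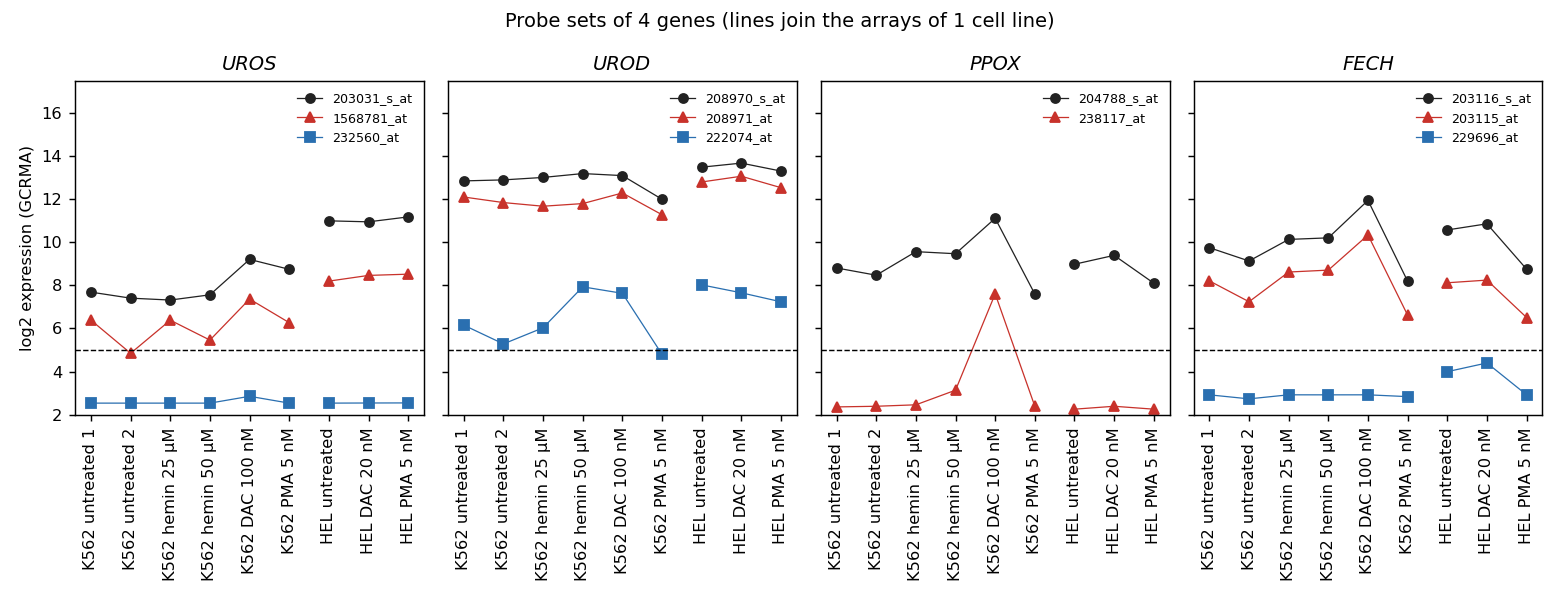
Log2 expression (vertical axis) of every probe set of UROS, UROD, PPOX and FECH in the 9 arrays (horizontal axis). A dashed line marks the minimum of 5 and other lines join arrays of 1 cell line. The dim PPOX probe set exceeds 5 with DAC in K562 alone.

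Over the 9 arrays the members spanned from 1.68 log2 units for UROD and 1.96 for ALAS1 to 7.18 for ALAS2, with 2.55 to 3.86 for the others. Likeness of pattern was measured as the root mean square difference over the 9 arrays after centring each gene on its own mean, for the 7 members that span at least 2. By this measure PPOX and FECH were close to each other (0.36), and for each of them only OAT, the mitochondrial ornithine aminotransferase, was closer among all 10560 genes (0.34 and 0.34). The third in order was CCDC86 for PPOX (0.42) and URB1 for FECH (0.40). The closest genes to ALAS2 were PRR5, RHD and TEX15, at 1.06 to 1.09, where RHD encodes the Rh blood group D antigen. For UROS they were OAS3 (0.25), PSTPIP2 and PEPD, for CPOX RIPOR1 (0.29), ZC3HAV1L and GNB4, for ABCB10 ZNF420 (0.21), ATAD5 and PAICS, and for ALAD ATP7B (0.35), ZNF589 and ERICH1. These arrays differ in line and treatment at once, so the measure describes both.

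The other genes listed around heme synthesis comprised carriers and partners of the enzymes, iron-sulfur cluster genes, iron and heme transport, and regulators, and 23 of the 28 had a named probe set and were measured. With DAC in K562, 10 of the 23 were over 1.5-fold higher and 1 lower, against 14.8% and 17.7% of all genes. SLC25A37, the mitochondrial iron importer mitoferrin-1, was at 13.70 against 11.50 and 10.38. ABCB6, a porphyrin transporter, was at 9.19 against 7.26 and 6.66, and FAM210B, a mitochondrial protein of erythroid iron uptake, at 11.29 against 9.10 and 10.15. None of the 23 passed the test with DAC (6 at an unadjusted p under 0.05, where 10.8% of all genes pass).

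With PMA in K562, 8 of the 23 were over 1.5-fold lower and 2, FAM210B and GATA1, were higher, against 30.1% and 25.8% of all genes, and limma called 2 as falls, against 9.09%. The shares of the list, 34.8% lower and 8.7% called, are near those of all genes. These were LONP1, the mitochondrial protease that degrades ALAS1, at 9.01 against 12.17 and 12.22 (adjusted p = 0.0210), and ABCB6, at 4.09 under the minimum and so at least 3.89-fold lower (adjusted p = 0.0295). Both calls are lost when any 1 untreated or hemin array is left out, with adjusted p between 0.0750 and 0.152. In HEL with PMA, 9 of the 23 were over 1.5-fold lower and 0 higher, against 16.8% and 14.9% of all genes. Among them were TMEM14C, which is needed for porphyrin import into mitochondria, at 10.498 against 11.88, and TFRC, the transferrin receptor, at 12.15 against 13.44. The transferrin receptor lay lower in K562 too, at 12.82 against 13.56 and 13.69.

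With hemin, 4 of the 23 were over 1.5-fold higher and 2 lower, against 9.41% and 14.2% of all genes. None passed the test and 1, ABCB6, had an unadjusted p under 0.05, a share of 4.35% against 10.2% of all genes. ABCB6 was at 8.38 and 9.07 at 25 and 50 µM against 7.26 and 6.66, so the groups did not overlap (log2 difference 1.77). TAL1, an erythroid transcription factor, was at 10.48 and 10.98 against 9.94 and 10.28. GATA1, the main erythroid transcription factor, was at 9.19 and 9.46 against 10.42 and 9.72, and LONP1 at 11.69 and 10.87 against 12.17 and 12.22, both lower without overlap. Of the 23, 8 had both hemin values above both untreated ones and 2 had both below, against 22.9% and 22.6% of all genes. With 20 nM DAC in HEL, 0 of the 23 passed 1.5-fold, against 10.3% of all genes. Between the untreated lines 2 passed the test, ACO1, the cytosolic aconitase and iron sensor (7.27 and 7.37 in K562 against 8.90 in HEL, adjusted p = 0.0197 from limma) and TAL1 (9.94 and 10.28 against 12.06, adjusted p = 0.0478), both lower in K562, where 10.7% of all genes were called lower. Leaving out any 1 untreated or hemin array ends both calls, with adjusted p between 0.0675 and 0.161.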

How the data were processed

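The 9 arrays were labelled and grouped by sample titles. Log2 values per probe set were deposited by the authors of the series, whose notes name GCRMA (background from probe sequence, quantile normalization) without a version. No source used here says how the 27306 probe sets were selected. The study that used these arrays names no test for them in particular. The platform annotation named 1 gene for 22858 probe sets, several for 1164 and none for 3284. Differences were computed in R 4.3.3 with limma 3.58.1 (lmFit, eBayes, Benjamini-Hochberg over all genes, threshold 0.05) on 6 K562 arrays (9890 genes) or all 9 arrays (10560 genes). HEL differences over 9641 genes carry no test. Counts are set beside the share of all genes by the same rule. The scripts were tested on simulated data. Members, gene lists, motifs and alternatives were chosen with earlier results of these data known. The members, the neighbouring genes past 1.5-fold and the 3 genes most like each member spanning at least 2 log2 units could be named. CD3D and LYZ, the only lymphocyte and monocyte markers measured of 5 listed each, lay at 8.51 to 12.51 and 6.34 to 8.64 in K562 and at 3.05 to 5.85 and 10.20 to 10.41 in HEL. Of the 3 liver markers listed, 0 were measured. Promoters came from RefSeq, GRCh38.p14. The alternatives were quantile normalization, median centring, no minimum or a minimum of 7, the mean of kept probe sets, leaving out each untreated or hemin array, all 9 arrays in 1 fit, an intensity trend, dose as a number, 4 arrays alone and the methods' t-test.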

Additional observations from a re-analysis of the deposited data

Results flagged for a closer look

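With DAC, 2 members lay above both untreated arrays in K562 and below the untreated array in HEL. This difference was not tested and sets 100 nM in K562 beside 20 nM in HEL. ALAD differed by 0.030 in K562, between its untreated values, and by -0.378 in HEL. ALAS1 lay above both untreated arrays in K562 (9.63 against 8.95 and 9.33) and by -0.22 below the untreated array in HEL. UROS lay above both untreated arrays in K562 (9.21 against 7.69 and 7.41) and differed by -0.047 in HEL. For UROS this does not hold for the mean of its kept probe sets, which differed by 0.11 in HEL, nor for its second kept probe set, which differed by 0.27.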

How the results depend on the processing

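No paired analysis was possible because the labels give no replicate numbers that the groups share. Of 95 alternative counts of members called or past 1.5-fold, 85 stayed within 1.5 times the reported count. These include every alternative to a reported count of 0, all of which stayed at 0. The rest were all counts of members called with PMA in K562 or between the untreated lines. The number of members called with PMA in K562 was 2 with a minimum of 7 (UROS added, adjusted p = 0.0493) and 2 with an intensity trend (UROD added, adjusted p = 0.0313), and ranged from 0 to 0 when single arrays were left out, which leaves 1 residual degree of freedom. Between the untreated lines it ranged from 0 to 1 when single arrays were left out. Over all genes, limma called 6 with DAC in K562, but 10 with no minimum, 17 with the mean of probe sets, 25 with an intensity trend, 26 after quantile normalization, 38 after median centring and 0 with all 9 arrays in 1 fit or any single array left out. With PMA in K562 1664 genes were called and 0 with any single array left out, between the untreated lines 2136 and 665 to 777, and for the difference of the PMA responses 281 and 0, with 696 for no minimum, 114 for a minimum of 7 and 644 for a trend. With hemin 0 were called, and 1 each by median centring and the methods' t-test. Leaving out untreated replicate 1 turned the sign of small differences, which are given as without replicate 1 and without replicate 2. These were -0.387 and 0.447 for ALAD with DAC, -0.163 and 0.671 for ALAD with hemin, -0.050 and 0.483 for CPOX with hemin, 0.034 and -0.247 for UROS with hemin and -0.108 and 0.276 for ALAS1 with PMA in K562. For the PMA response of K562 minus that of HEL they were 0.471 and -0.899 for ALAS2, 0.005 and -0.332 for PPOX and -0.365 and 0.019 for ALAS1, where replicate 2 turned the sign. UROS with hemin was 0.015 without the 25 µM array and 0.100 as the mean of its probe sets. None of these passed the test in any of the settings. Precision is limited throughout by how few arrays there are, and values near 2.25 carry no order.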
